A study of Mus musculus with 18 samples.

Results

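Chemokines are small secreted proteins that guide leukocytes along gradients, and their receptors are G protein-coupled receptors on the moving cell. They were taken here as every gene of the deposited tables whose symbol begins with Ccl, Cxcl, Ccr or Cxcr and a digit, together with Xcl1, Xcr1, Cx3cl1 and Cx3cr1. The rule matched 59 symbols; 2 pseudogenes of Ccl19 were dropped, which left 57 of the 48440 gene identifiers. Of these, 38 were ligands (23 CC, 13 CXC, 1 XC and 1 CX3C) and 19 were receptors (11 CC, 6 CXC, 1 XC and 1 CX3C).

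RNA was sequenced from CD45+ immune cells of the livers of wild-type mice of the C57BL/6J strain, purchased when 7 weeks old and fed for a week to adapt, in which Ras and Myc oncogenes had been delivered by hydrodynamic tail vein injection. This method drives plasmid DNA into hepatocytes, so the tumours arise in the liver of an animal with its own immune system; all groups carried the oncogenes. Untreated mice were compared with mice given poly(I:C), a double-stranded RNA mimic, at 4 mg/kg with 200 µg of anti-PD-L1 antibody, 6 doses given on alternate days. The protocol further mentions anti-VEGF-A, which the labels of these libraries do not name. Cells had been sorted as CD3+CD8+ (CD8 T cells), CD3+CD8- (the remaining T cells) or CD3-CD8- (the leukocytes without either marker), with 3 untreated and 3 treated libraries of each, 18 in all. Library names carry replicate codes, but the labels do not say whether each code is 1 animal, so p-values measure the spread between these libraries.

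In the liver, chemokines draw lymphocytes and myeloid cells out of the sinusoids. Inflammatory receptors such as Cxcr3 and Cxcr6 mark activated T cells and natural killer cells, Ccr7 and Cxcr5 guide lymphocytes through lymphoid tissue, Ccr2 mobilises monocytes, and Cxcr2 moves neutrophils. Interferons and NF-kappaB, both downstream of double-stranded RNA sensing, are textbook inducers of many inflammatory ligands, among them Cxcl9, Cxcl10 and Ccl5.

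Total counts ran from 1829155 to 28233682 per library, and 3 libraries (untreated CD3+CD8+ replicates 1 and 18 and treated CD3+CD8- replicate 2) had 79.7% to 87.0% of them on 5 ribosomal RNA loci, against at most 2.26% elsewhere; counts outside these loci spanned 486461 to 27971673. Levels below are counts divided by scaled library size (CPM), scaled over the 18 libraries by the trimmed mean of M-values (TMM). Markers did not follow every sort label. The library labelled untreated CD3+CD8- replicate 6 held Cd8a at 641 CPM, against 4.64 to 23.6 in the other 5 of that fraction, and CD3-CD8- libraries held Cd3e at 52.0 to 311 CPM and Cd8a at 60.8 to 985. Neutrophil markers, at a summed 3313 to 32861 CPM over 10 genes, were abundant in CD3+CD8- libraries and also reached 20569 in treated CD3-CD8- replicate 11. A summed 1793 CPM of B cell markers stood in untreated CD3+CD8+ replicate 18, against 28.04 to 181 in the other 5 libraries of that fraction.

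Many members share a chromosome: 11 of the 23 CC ligands lie on chromosome 11, 9 of the 13 CXC ligands on chromosome 5, and 8 of the 11 CC receptors on chromosome 9, as do Cxcr5, Cxcr6, Xcr1 and Cx3cr1. Promoter sequences were found in RefSeq (build GRCm38.p6) for 42 members. Shown are 4, each the 250 bases before the RefSeq start, 5′ to 3′ on the gene's strand, because their genes carry results given further on: Ccl3 and Cxcr6 changed with treatment, Cxcl2 separated the fractions, and Cxcl10 is the interferon-induced ligand whose level did not pass the test for treatment. Capitals mark kappaB matches (GGG, any 2 bases, TTTCC) in Cxcl2, and in Cxcl10 an interferon-response match (ISRE; TTTC, any 2 bases, TTTC, here on the opposite strand) followed by an AP-1 match (TGANTCA).
Ccl3, chr11:83649379-83649628, minus strand: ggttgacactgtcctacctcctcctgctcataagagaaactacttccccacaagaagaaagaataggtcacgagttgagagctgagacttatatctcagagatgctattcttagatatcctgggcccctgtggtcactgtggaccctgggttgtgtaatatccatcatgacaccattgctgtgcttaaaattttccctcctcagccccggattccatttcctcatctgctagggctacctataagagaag
Cxcr6, chr9:123806227-123806476, plus strand: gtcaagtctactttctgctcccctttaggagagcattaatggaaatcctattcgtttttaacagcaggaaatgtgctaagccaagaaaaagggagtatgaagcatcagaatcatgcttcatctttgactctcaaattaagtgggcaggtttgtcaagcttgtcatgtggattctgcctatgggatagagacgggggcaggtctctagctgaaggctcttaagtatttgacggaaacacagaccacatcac
Cxcl2, chr5:90903649-90903898, plus strand: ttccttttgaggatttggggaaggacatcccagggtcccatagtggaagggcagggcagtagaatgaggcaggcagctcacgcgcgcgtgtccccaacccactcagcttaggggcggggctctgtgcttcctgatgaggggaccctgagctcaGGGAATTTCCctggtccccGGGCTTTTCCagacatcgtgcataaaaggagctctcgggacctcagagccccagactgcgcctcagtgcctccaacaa
Cxcl10, chr5:92348890-92349139, minus strand: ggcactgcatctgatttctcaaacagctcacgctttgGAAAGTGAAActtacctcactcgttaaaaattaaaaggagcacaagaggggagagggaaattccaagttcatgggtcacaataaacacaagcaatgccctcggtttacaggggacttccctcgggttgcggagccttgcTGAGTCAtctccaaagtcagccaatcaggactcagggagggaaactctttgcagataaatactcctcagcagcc

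Both strands of the 49 member promoters of this length were searched. The kappaB letters stood in 6 of them (12.2%; Ccl9, Ccl20, Ccr3, Cxcl1, Cxcl2 and Cxcl3), against 1.41% of all 32851 promoters in the table, and 2 matches, starting at positions -97 and -78 from the start, lay in Cxcl2. AP-1 letters stood in 6 member promoters (12.2% against 6.75%), ISRE letters in 3 (6.12% against 2.98%; Ccl19, Cxcl10 and Cxcl14), the letters TTCNNNGAA of an interferon-gamma-activated site in 4 (8.16% against 7.02%), and the T-box letters TCACACCT in 1 (2.04% against 1.12%). Cxcl1, Cxcl2 and Cxcl3 are neighbouring copies of one ancestral gene, so their matches are not separate observations. A match is a description of these letters only.

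Expression was uneven across the family. No count was found in any library for 5 ligands (Ccl19, Ccl21a, Ccl21b, Ccl26 and Cxcl5), and 20 members in all (18 ligands and 2 receptors) were too low to be tested for treatment in any fraction. None of these 20 had a group mean above 1.59 CPM, or more than 43 counts in a library. They included Ccl20, the ligand of Ccr6 (1 count in each of 3 libraries), Cxcl13, the B cell follicle ligand of Cxcr5 (at most 22 counts), the neutrophil ligands Cxcl1 and Cxcl3, and the membrane-bound Cx3cl1 (at most 17 counts). For scale, 3 counts correspond to between 0.0723 and 5.57 CPM, depending on the library. The homeostatic ligand Cxcl12, made by stroma, had a mean of 0.389 CPM in CD3+CD8+, 1.71 in CD3+CD8- and 1.44 in CD3-CD8- libraries. Transcripts of Ccl19, Ccl21a, Ccl21b, Ccl27a and Ccl27b share between 59.1% and 100% of their 50-base words with other genes, so their counts are uncertain.

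**Figure D1:**
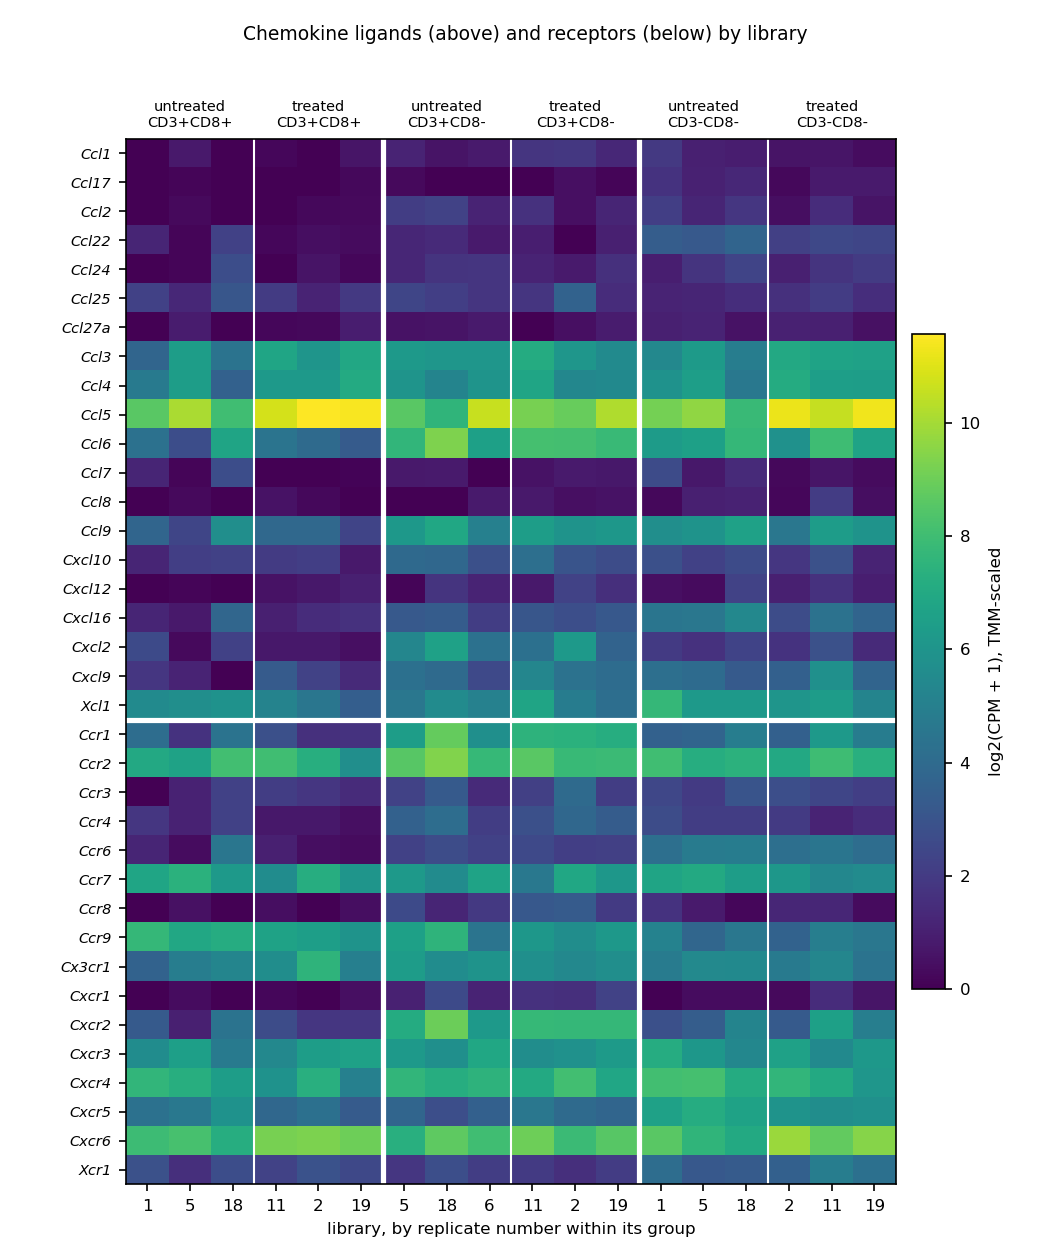
TMM-scaled levels, as log2(CPM + 1) on the colour scale, of 36 of the 37 members tested in at least 1 comparison (20 ligands above, 16 receptors below; rows) in the 18 libraries (columns, by group and replicate number). Ccl5 and Cxcr6 are bright in every group, Ccr1, Cxcr2 and Cxcl2 in the CD3+CD8- libraries.

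Per transcript length, on the deposited FPKM scale and without the 3 ribosome-rich libraries, Ccl5 had the highest mean of the ligands in each fraction. It had a mean of 6282 ± 2892 FPKM (SD, n = 4) in CD3+CD8+, 2200 ± 1596 (n = 5) in CD3+CD8- and 3935 ± 3010 (n = 6) in CD3-CD8- libraries. Ccl5 is a ligand of Ccr1 and Ccr3 and a product of effector T cells. The next ligands were Ccl4 (172 ± 55.0 FPKM) and Ccl3 (138 ± 35.9), neighbouring inflammatory ligands, in CD3+CD8+ cells, the myeloid ligand Ccl6 (246 ± 115) in CD3+CD8- cells, and Xcl1 (278 ± 211), the lymphocyte product that attracts Xcr1+ dendritic cells, in CD3-CD8- cells. Values of these ligands overlapped within each fraction, so their order below Ccl5 is not resolved. Ccl5 itself overlapped with the next ligand outside CD3+CD8+ cells. In CD3+CD8- libraries its lowest value was 367 FPKM, and the highest of Ccl6 was 414. In CD3-CD8- libraries its lowest value was 576 FPKM, and the highest of Xcl1 was 696.

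Cxcr6 had the highest mean of the receptors in each fraction on the same FPKM scale, at 302 ± 98.2 (n = 4), 196 ± 82.9 (n = 5) and 281 ± 195 (n = 6) in CD3+CD8+, CD3+CD8- and CD3-CD8- libraries. It binds Cxcl16 and holds T cells and natural killer cells in the liver. Cxcr4 (69.5 ± 47.4) and Ccr7 (62.4 ± 36.6) were among the 6 most abundant in CD3+CD8+ libraries. Second stood Ccr2 (113 ± 37.1) in CD3+CD8- and Cxcr4 (137 ± 83.0), the receptor of Cxcl12, in CD3-CD8- libraries. Each overlapped with Cxcr6 and with the receptors that follow. Ccr2 reached 148 FPKM in CD3+CD8- libraries, where the lowest Cxcr6 value was 108. Cxcr4 reached 249 FPKM in CD3-CD8- libraries, where the lowest Cxcr6 value was 68.1. Cxcr2 (73.0 ± 35.7) and Ccr1 (61.9 ± 39.3) were also among the 6 most abundant receptors in CD3+CD8- libraries.

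The fractions were compared over treated and untreated libraries together, in an edgeR fit of all 18, which asks which cells carry each ligand and receptor. Of the 57 members, 33 passed the filter on low counts there, and 18 were called (adjusted p below 0.05) in at least 1 comparison. Between CD3+CD8+ and CD3+CD8- cells 11 of the 33 were called, 33.3% against 7.69% of all genes tested, all 11 lower in CD3+CD8+ (6.96% of all genes were called lower and 0.728% higher). Between CD3+CD8+ and CD3-CD8- cells 14 were called (42.4% against 12.8%), 1 higher and 13 lower in CD3+CD8+ (4.85% and 7.99% of all genes). Between CD3+CD8- and CD3-CD8- cells 11 were called (33.3% against 8.13%), 7 higher and 4 lower in CD3+CD8- (5.27% and 2.85% of all genes). Members low in all but 1 fraction passed the filter through that fraction, so these counts describe the tested members and give no support of their own.

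The median log2 difference of the 33 tested members was -1.50, -1.40 and 0.16 in these comparisons, against 0.04, 0.01 and 0.00 over all genes. With untreated libraries alone, which include 2 of the 3 ribosome-rich ones, 0, 1 and 2 members were called, and with treated libraries alone 11, 11 and 5. Without the 3 ribosome-rich libraries and untreated CD3+CD8- replicate 6, a choice made after seeing the data, the counts were 15, 19 and 13 of 43 members tested.

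Cxcr2, Ccr1 and Cxcl2 were called higher in CD3+CD8- cells than in both other fractions. Cxcr2, which brings neutrophils to CXC ligands, stood at 139, 497 and 72.9 CPM in the 3 untreated CD3+CD8- libraries (replicates 5, 18, 6) and at 206 to 212 in the treated ones. In CD3+CD8+ libraries it was 1.04 to 20.4 CPM, below every CD3+CD8- library. The log2 difference of CD3+CD8+ from CD3+CD8- was -5.55 ± 0.81 (SE; adjusted p = 3.0e-04). In CD3-CD8- libraries it was 6.14 to 36.0 CPM except in treated replicate 11, where it was 94.4, and CD3+CD8- cells exceeded them by 3.02 ± 0.67 on the log2 scale (adjusted p = 0.0092).

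Its ligand Cxcl2 followed the same order, with 11.8 to 98.9 CPM in CD3+CD8-, 0.209 to 5.04 in CD3+CD8+ and 1.62 to 6.36 in CD3-CD8- libraries. The CD3+CD8- libraries did not overlap with either other fraction. Log2 differences were -5.69 ± 0.77 for CD3+CD8+ minus CD3+CD8- (adjusted p = 1.9e-04) and 3.79 ± 0.60 for CD3+CD8- minus CD3-CD8- (adjusted p = 9.5e-04). Its promoter, with 2 kappaB matches, is printed above. Of the 50-base words of Cxcl2, 5.35% were shared with Cxcl3. Of those of Cxcl3, 3.89% were shared with Cxcl2 or other genes, a small part of either transcript.

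Ccr1, a receptor of neutrophils and monocytes for Ccl3, Ccl5, Ccl6, Ccl7 and Ccl9, ranged from 52.7 to 455 CPM in CD3+CD8-, from 2.08 to 20.4 in CD3+CD8+ and from 10.6 to 76.9 in CD3-CD8- libraries. The log2 difference was -4.96 ± 0.71 for CD3+CD8+ minus CD3+CD8- (adjusted p = 2.8e-04) and 2.81 ± 0.61 for CD3+CD8- minus CD3-CD8- (adjusted p = 0.0081). Ccl6, its myeloid ligand, was lower in CD3+CD8+ than in CD3+CD8- cells by a log2 difference of -3.56 ± 0.65 (adjusted p = 0.0018) and than in CD3-CD8- cells by -2.45 ± 0.62 (adjusted p = 0.015). Ccl9 and Cxcr1 were also called lower in CD3+CD8+ than in CD3+CD8- cells. The neutrophil marker sum was 43.8 to 856 CPM in CD3+CD8+ libraries against 3313 and more in CD3+CD8- ones, and its part in these differences was not tested.

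Ccr4 and Ccr8 were also called higher in CD3+CD8- cells than in both other fractions. Ccr4, which binds Ccl17 and Ccl22, had a mean of 9.97 CPM there against 1.52 in CD3+CD8+ and 3.00 in CD3-CD8- cells, and each of the 3 comparisons between fractions was called. CD3+CD8+ minus CD3+CD8- was -3.31 ± 0.46 on the log2 scale (adjusted p = 2.2e-04). Ccr8, found on regulatory T cells of tumours, was 1.31 to 8.88 CPM in CD3+CD8- libraries and at most 0.418 in CD3+CD8+ ones. The log2 difference was -3.91 ± 0.78 (adjusted p = 0.0035). Untreated CD3+CD8+ replicates 1 and 18 held no Ccr8 count, and 1 count there equals 1.26 and 1.86 CPM. Whether they lie below every CD3+CD8- library is therefore not resolved. Ccl1, the ligand of Ccr8, did not exceed 2.80 CPM in any library.

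The monocyte axis was less divided. Ccr2, the receptor that brings monocytes out of the marrow, was 214 to 665 CPM in CD3+CD8-, 51.8 to 265 in CD3+CD8+ and 128 to 258 in CD3-CD8- libraries, with overlap throughout, and no difference was called (adjusted p = 0.090 to 0.77). Its ligand Ccl2 was at or below 0.222 CPM in CD3+CD8+ libraries and 0.359 to 3.94 in the other 12. Untreated CD3+CD8+ replicates 1 and 18 held no Ccl2 count, where 1 count equals 1.26 and 1.86 CPM. These libraries cannot show a level below that of the others. Ccl2 was called lower in CD3+CD8+ than in CD3+CD8- (-3.48 ± 0.70 on the log2 scale, adjusted p = 0.0038) and in CD3-CD8- cells (-2.96 ± 0.69, adjusted p = 0.0093).

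Cxcl9 and Cxcl10 are interferon-induced ligands of Cxcr3, the receptor of activated T cells. Cxcl9 was 0 to 9.01 CPM in CD3+CD8+, 4.86 to 39.1 in CD3+CD8- and 8.61 to 55.8 in CD3-CD8- libraries. It was lower in CD3+CD8+ cells by -2.86 ± 0.61 (adjusted p = 0.0062) and -2.94 ± 0.61 (adjusted p = 0.0040) on the log2 scale than in the other fractions in turn. Cxcl10 was called lower in CD3+CD8+ than in CD3+CD8- cells only (-2.05 ± 0.50, adjusted p = 0.016); whether it differs from Cxcl9 in this was not tested. Cxcr3 itself was 26.0 to 96.7, 49.9 to 119 and 40.3 to 141 CPM in the 3 fractions, with log2 differences between -0.23 and -0.11, none called. Exons of Cxcl10 overlap those of Art3 on the opposite strand, and whether the counting used strand is not given in the sources used here.

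Cxcr5, Ccr6, Ccl22 and Xcr1 were called higher in CD3-CD8- cells than in both other fractions. Cxcr5, the receptor that takes B cells into follicles, was 50.9 to 142 CPM there, 5.77 to 23.0 in CD3+CD8- and 8.86 to 59.4 in CD3+CD8+ libraries. The log2 difference of CD3+CD8- from CD3-CD8- was -2.64 ± 0.28 (adjusted p = 5.1e-05). The 59.4 CPM stood in untreated CD3+CD8+ replicate 18, the library with the high B cell marker sum. Ccr6, another B cell and type 17 T cell receptor, was 16.8 to 28.4 CPM in CD3-CD8- libraries and at most 5.51 in all others except that same library, at 22.3. Its log2 differences were -3.87 ± 0.66 for CD3+CD8+ minus CD3-CD8- (adjusted p = 0.0010) and -2.37 ± 0.55 for CD3+CD8- minus CD3-CD8- (adjusted p = 0.012). B cell marker sums were 1786 to 4037 CPM in CD3-CD8- libraries, and their part in these differences was not tested.

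Ccl22, a dendritic cell ligand of Ccr4, was 3.51 to 12.4 CPM in CD3-CD8- libraries and at most 3.71 elsewhere. The log2 differences were -3.98 ± 0.59 for CD3+CD8+ minus CD3-CD8- (adjusted p = 4.5e-04) and -2.69 ± 0.48 for CD3+CD8- minus CD3-CD8- (adjusted p = 0.0022). Xcr1, the receptor of cross-presenting dendritic cells, was 8.17 to 28.8 CPM in CD3-CD8- libraries and 1.93 to 6.58 in all others, without overlap, with a log2 difference of -2.17 ± 0.34 for CD3+CD8- minus CD3-CD8- (adjusted p = 8.5e-04). Xcl1, its ligand, was 36.8 to 208 CPM in CD3-CD8- and 10.1 to 107 in the other libraries, and was not called (adjusted p = 0.054 to 0.84). Cxcl16, the membrane-bound ligand of Cxcr6, was 5.47 to 40.7 CPM in CD3-CD8- and 0.731 to 13.0 in CD3+CD8+ libraries, a log2 difference of -3.14 ± 0.54 for CD3+CD8+ minus CD3-CD8- (adjusted p = 0.0012). Exons of Cxcl16 overlap Zmynd15, those of Xcl1 overlap Gm20743 and those of Cxcr5 overlap Bcl9l, each on the opposite strand.

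Ccr9, the gut-homing receptor for Ccl25, was the only member called higher in CD3+CD8+ than in CD3-CD8- cells. It was 61.3 to 205 CPM in CD3+CD8+ and 11.5 to 33.7 in CD3-CD8- libraries, without overlap, and 20.7 to 182 in CD3+CD8- ones. Log2 differences were 2.35 ± 0.40 for CD3+CD8+ minus CD3-CD8- (adjusted p = 0.0011) and 1.82 ± 0.39 for CD3+CD8- minus CD3-CD8- (adjusted p = 0.0080). Its exons overlap Slc6a20a on the opposite strand and Gm17200 on the same strand.

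No difference between fractions was called for Cxcr4, Ccr7 or Cx3cr1. Cxcr4 was 32.3 to 195 CPM in CD3+CD8+, 114 to 271 in CD3+CD8- and 65.8 to 286 in CD3-CD8- libraries (adjusted p = 0.28 to 0.99). Ccr7 was 49.1 to 166, 24.0 to 119 and 39.7 to 131 CPM in the same order (adjusted p = 0.46 to 0.98). Cx3cr1 was 11.3 to 186, 41.7 to 82.0 and 20.4 to 43.8 CPM (adjusted p = 0.23 to 0.86), and its exons overlap Gm33858 on the opposite strand. A p that misses the threshold does not show that these levels are alike.

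Treatment was tested within each fraction. In CD3-CD8- cells, 8 of the 36 members tested were called, 22.2%, near the 25.6% of all 13781 genes called in that comparison. Treated libraries were higher for 4 members (10.2% of all genes were called higher) and lower for 4 (15.3% of all genes were called lower), and the median log2 fold change was -0.24 for the members and -0.06 for all genes. By share of calls the family therefore did not stand out from the transcriptome. Treated and untreated libraries did not overlap for 13 members (5 higher and 8 lower) while 45.4% of all genes did not overlap (22.4% higher and 23% lower).

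Cxcr6 (chr9:123806477-123811754) was 396, 191 and 132 CPM in the untreated CD3-CD8- libraries (replicates 1, 5, 18), and the treated ones (replicates 2, 11, 19) stood at 906, 438 and 700. The groups did not overlap, although the lowest treated library was close to the highest untreated one. The log2 fold change was 1.50 ± 0.43 (SE; adjusted p = 0.0415).

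Ccl5 (chr11:83525778-83530518) was 563, 805 and 229 CPM in the untreated and 2420, 1496 and 2567 in the treated CD3-CD8- libraries, again without overlap. The log2 fold change was 2.01 ± 0.45 (adjusted p = 0.0194). Ccl3, on the same chromosome (chr11:83647844-83649355), was 41.0, 77.8 and 29.2 CPM against 126, 103 and 98.1, a log2 fold change of 1.12 ± 0.33 (adjusted p = 0.0421). Its neighbour Ccl4, at 59.2, 87.9 and 24.1 against 138, 88.8 and 86.0 CPM, overlapped and was not called (0.86 ± 0.42, adjusted p = 0.16).

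The 4 members that fell included the lymphoid homing receptors Cxcr5 and Ccr7. Cxcr5 (chr9:44511788-44556391) was 97.2, 142 and 101 CPM in the untreated and 61.4, 50.9 and 56.0 in the treated CD3-CD8- libraries, and the groups did not overlap. It fell by 1.04 ± 0.19 on the log2 scale (adjusted p = 0.0115). Ccr7 (chr11:99144196-99155077), which takes dendritic cells and naive T cells to lymph nodes, was 106, 131 and 85.5 against 68.2, 39.7 and 46.4 CPM and fell by 1.08 ± 0.25 (adjusted p = 0.0211).

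Ccl22 (chr8:94745590-94751699) was 9.62, 8.37 and 12.4 CPM in untreated and 3.51, 4.77 and 4.40 in treated CD3-CD8- libraries, and fell by 1.31 ± 0.25 on the log2 scale (adjusted p = 0.0128). Ccl7 (chr11:82045712-82047525), a monocyte ligand of Ccr2, was 5.19, 0.675 and 1.61 CPM against 0.200, 0.596 and 0.275 and fell by 3.05 ± 0.85 (adjusted p = 0.0374), on only 76, 28 and 20 counts in the untreated and 5, 3 and 9 in the treated libraries. The lowest untreated library was close to the highest treated one, and replicate 1 held most of the untreated counts.

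**Figure D2:**
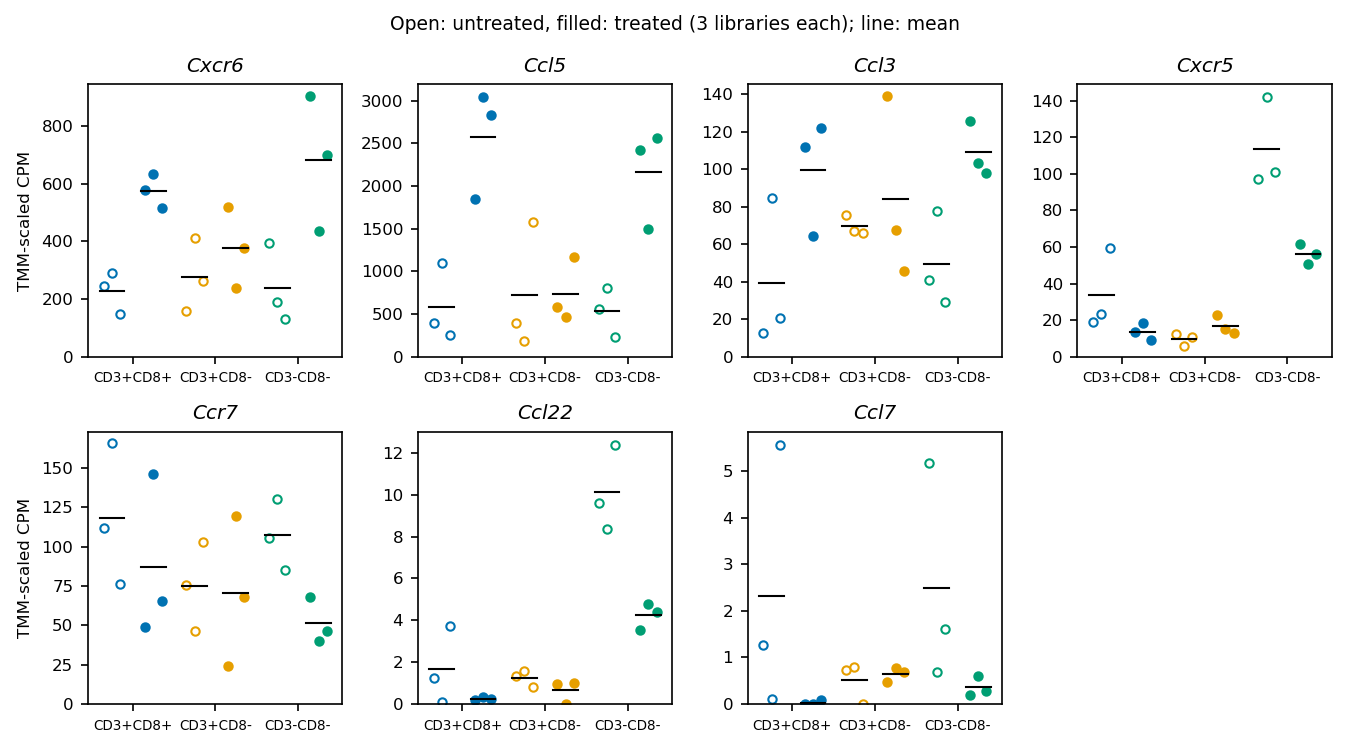
TMM-scaled CPM (vertical axes, linear from 0) of 7 members called in CD3-CD8- cells, in the 3 fractions; each point is a library, open for untreated and filled for treated, and lines are means of 3. In CD3-CD8- cells the treated points of Cxcr6, Ccl5 and Ccl3 lie above the untreated ones, and those of Cxcr5, Ccr7, Ccl22 and Ccl7 below.

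Markers of several cell types were summed in the same libraries. CD8 T cell markers summed to 591 to 1468 CPM in untreated and 3116 to 4814 in treated CD3-CD8- libraries, with 6 of 8 called higher and none at 0, beside Cxcr6, Ccl5 and Ccl3. Natural killer cell markers summed to 1641 to 2240 and 3396 to 4635 CPM, with 2 of 8 called higher and 1 lower. Only 3 of these 8 had a positive fold change (median log2 -0.29), so most of the list did not share the rise of the sum. B cell markers summed to 2740 to 4037 and 1786 to 2413 CPM, with 8 of 10 called lower, beside Cxcr5 and Ccr7. Conventional dendritic cell markers, beside Ccl22, summed to 154 to 198 and 102 to 200 CPM, with 2 of 8 called lower and overlap between the groups. Monocyte and macrophage markers, beside Ccl7, summed to 1078 to 2062 and 905 to 2730 CPM, also with overlap and with 3 of 10 called lower. Plasmacytoid dendritic cell markers summed to 414 to 543 and 136 to 262 CPM, without overlap and with 2 of 7 called lower. Neutrophil markers summed to 130 to 852 and 587 to 20569 CPM, with overlap. All 10 had a positive fold change (median log2 4.33) and 4 were called higher. Kupffer cell markers summed to 191 to 676 and 63.2 to 337 CPM, with overlap and with 2 of 6 called lower. In bulk libraries fewer cells of a type and less RNA per cell cannot be told apart, and the part of these cell types in the 8 calls was not tested.

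Whether these 8 passed the test depended on the analysis. The number of members called fell from 8 to 1 without untreated CD3-CD8- replicate 5, to 3 without treated replicate 2 and to 3 without treated replicate 19; it was 2 with a correction for transcript GC content, 1 with all 18 libraries in the fit and 1 on the FPKM values. Over 16 alternatives Ccl22 lost the call in 3, Cxcr5 in 4, Ccr7 in 5, Ccl5 in 6, Cxcr6 in 9 and Ccl3 in 11, and Ccl7 lost it in 9 of 14; none of these 7 changed direction. Within sequencing lane 2 (2 libraries a group) Ccl3, Ccl5 and Cxcr6 differed by log2 ratios of mean CPM of 1.35 to 2.31 and within lane 3 (1 a group) of 0.33 to 1.87. The 4 lower ones differed by -2.12 to -0.81 and by -1.48 to -0.60. A small constant was added to both means before each ratio, which shrinks the ratios of low members. Ccl7, which gave the -2.12 and the -0.60, stood at 0.398 against 3.40 CPM in lane 2 and 0.275 against 0.675 in lane 3.

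**Figure D3:**
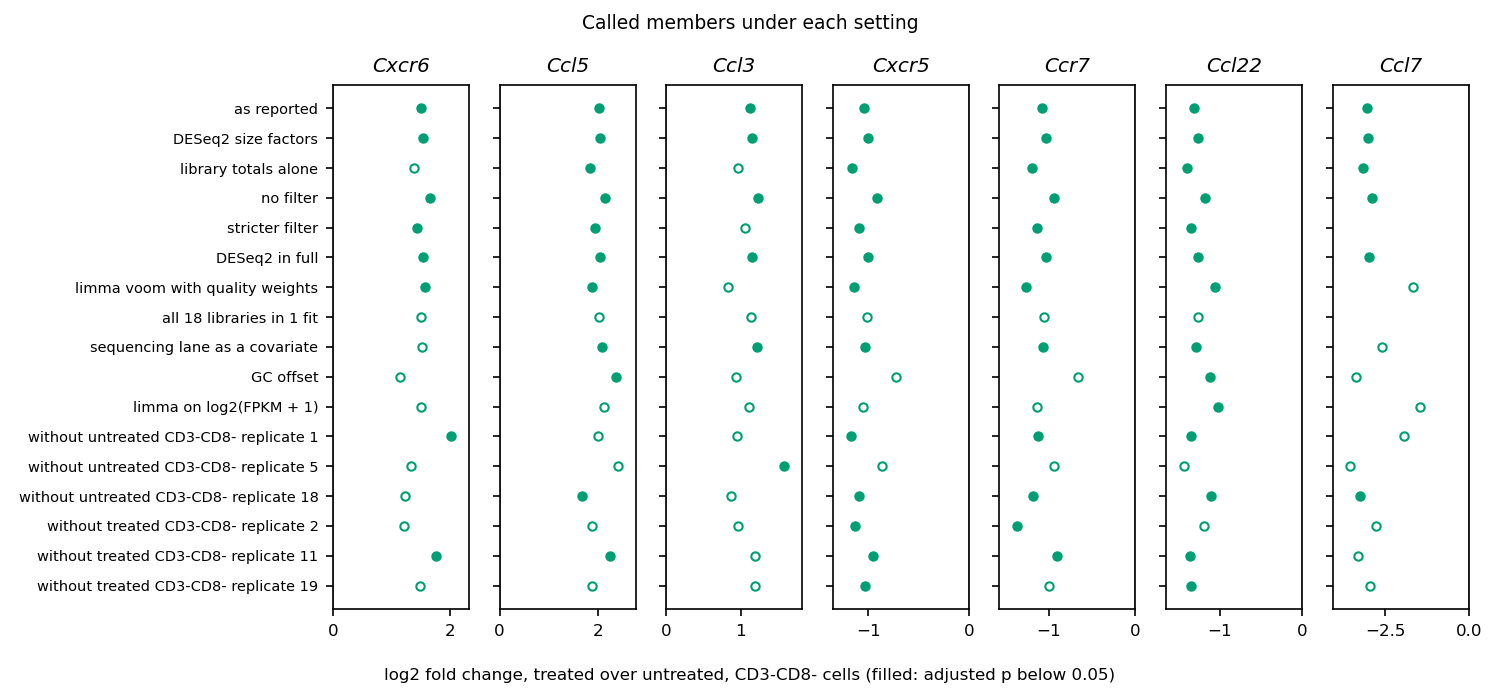
Log2 fold change of treated over untreated CD3-CD8- cells (horizontal axes) for 7 called members under each setting (rows), filled where the adjusted p was below 0.05. Open points are most frequent for Ccl3, Cxcr6 and Ccl7, and no point crosses 0.

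In CD3+CD8+ cells no gene of 10654 was called for treatment by edgeR (0%), and so none of the 22 members tested; 7 members and 624 genes had an unadjusted p below 0.05. Among the 5 of smallest p were Cxcr6, Ccl5, Xcl1 and Ccr9. Cxcr6 was 246, 291 and 147 CPM without treatment (replicates 1, 5, 18) and 580, 635 and 515 with it (replicates 11, 2, 19), a log2 fold change of 1.28 ± 0.34 (adjusted p = 0.46). Ccl5 was 393, 1103 and 258 against 1844, 3049 and 2832 CPM (2.08 ± 0.59, adjusted p = 0.51). Neither overlapped between groups.

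Xcl1 and Ccr9 had the opposite sign. Xcl1 was 45.4, 51.6 and 59.4 CPM in untreated and 34.7, 22.3 and 10.1 in treated CD3+CD8+ libraries (-1.30 ± 0.42, adjusted p = 0.65), and Ccr9 was 205, 120 and 141 against 101, 89.5 and 61.3 (-0.94 ± 0.31, adjusted p = 0.66). Both signs turned under other scalings: on the FPKM values the log2 differences were 0.78 for Xcl1 and 1.12 for Ccr9, and with library totals as the scale 0.54 for Ccr9. Those scalings moved the median of all genes to 1.46 and 1.17. In all, 6 members did not overlap between groups (3 higher, 3 lower); of all genes 10% did not, 6.56% higher and 3.45% lower. Each of the 4 named members had the same sign within both sequencing lanes. Lane 2 held 2 treated and 1 untreated library of this fraction, and lane 3 held 1 treated and 2 untreated. The untreated libraries of lane 3 (replicates 1 and 18) were both ribosome-rich, so the signs within lanes give no support of their own. DESeq2 called 3 members and limma voom 4, and edgeR called 2 without untreated replicate 5, so the count of 0 depends on the tool. CD8 T cell markers summed to 1298 to 4432 CPM in untreated and 4514 to 5492 in treated libraries, natural killer cell markers to 953 to 1458 and 2345 to 4360, and plasmacytoid dendritic cell markers to 480 to 657 and 217 to 326. None of these sums overlapped between groups, and their part in the values of Cxcr6, Ccl5, Xcl1 and Ccr9 was not tested. Of the 8 natural killer cell markers only 3 had a positive fold change in CD3+CD8+ cells (median log2 -0.27), so most did not share the rise of their sum.

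In CD3+CD8- cells no gene of 11197 was called by edgeR (0%), none of the 30 members tested was called, and no member had an unadjusted p below 0.05, against 198 of all genes; DESeq2 and limma voom also called 0 members. The smallest p-values belonged to Cxcr5, Cxcl9, Ccl2, Ccr8 and Cx3cr1. Cxcr5, the only member without overlap (4.01% of all genes had none, 2.71% higher and 1.3% lower), was 12.6, 5.77 and 10.5 CPM without treatment (replicates 5, 18, 6) and 23.0, 15.1 and 12.7 with it (replicates 11, 2, 19), a log2 fold change of 0.77 ± 0.42. Cxcl9 was 18.1, 15.0 and 4.86 against 39.1, 19.7 and 15.9 CPM (0.92 ± 0.51), and Ccl2 was 3.30, 3.94 and 1.22 against 2.16, 0.386 and 1.28 (-1.13 ± 0.63). The Ccl2 values rest on only 27, 15 and 3 counts in the untreated and 9, 1 and 24 in the treated libraries. Ccr8 was 5.01, 1.31 and 2.84 against 8.15, 8.88 and 2.92 CPM (0.99 ± 0.63). Cx3cr1, the receptor of patrolling monocytes and cytotoxic lymphocytes, was 82.0, 48.5 and 60.8 against 53.0, 41.7 and 52.5 (-0.40 ± 0.30). The adjusted p was 1.0 for each of the 5, and each kept its sign within both lanes. Lane 2 held 1 treated and 2 untreated libraries of this fraction and lane 3 held 2 treated and 1 untreated. A side of each ratio was thus a single library. CD4 T cell markers summed to 219 to 659 CPM in untreated and 715 to 1511 in treated CD3+CD8- libraries. Monocyte and macrophage markers summed to 1987 to 3071 and 3097 to 4506 CPM. Neither sum overlapped between groups, while those of the other lists did. Fold changes were positive for 4 of 6 and 4 of 10 genes. Untreated replicate 6, with Cd8a at 641 CPM, had the lowest CD4 T cell sum. The part of cell makeup in these values was not tested.

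**Figure D4:**
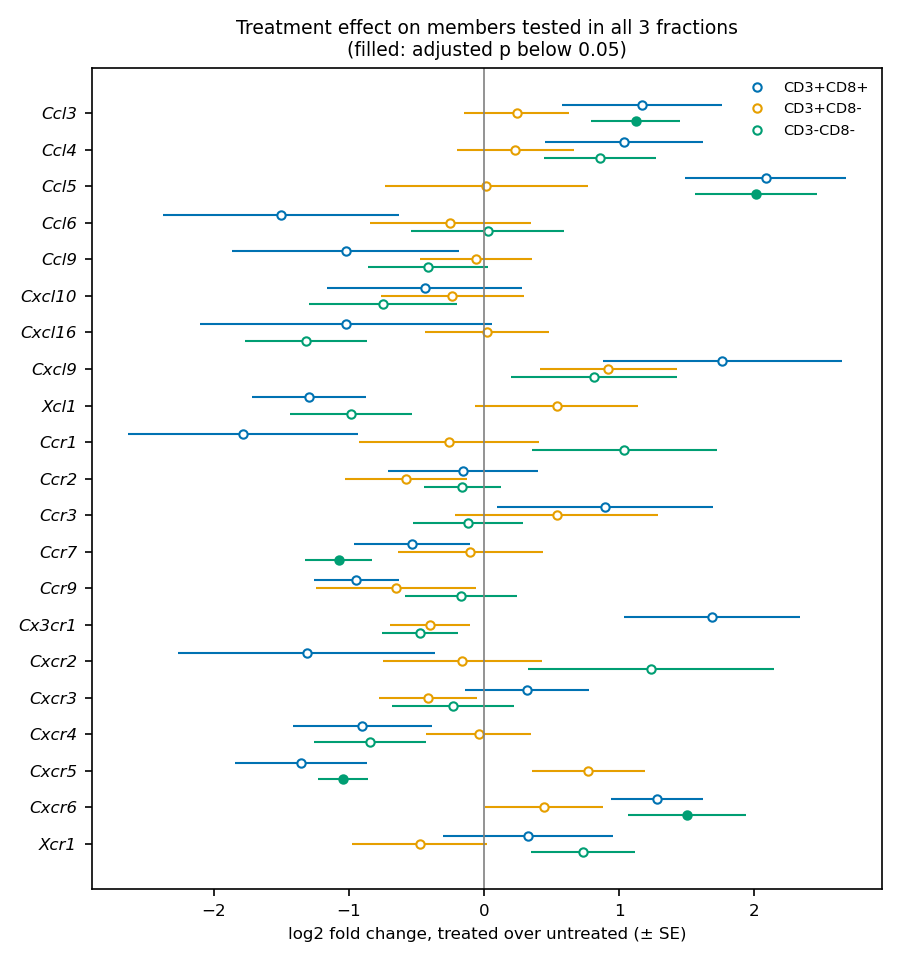
Log2 fold change of treated over untreated cells (horizontal axis, with SE bars) for 21 of the 22 members tested in all 3 fractions (rows), coloured by fraction and filled where the adjusted p was below 0.05. Cxcr6, Ccl5 and Ccl3 lie above 1 in CD3+CD8+ and CD3-CD8- cells; in CD3+CD8- cells these 3 are at 0.45, 0.02 and 0.24.

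Whether the treatment effect differed between fractions was tested directly, and no member of 33 and no gene of 13181 was called (0%; 4 members and 451 genes had an unadjusted p below 0.05). Among the 5 smallest p-values were those of Cxcr5 (adjusted p = 0.49), Cx3cr1, Ccl1 and Ccl5 (0.98 each of the latter). The effect on Cxcr5 in CD3+CD8+ minus that in CD3+CD8- cells was -2.05 ± 0.57 on the log2 scale (adjusted p = 0.32). Untreated CD3+CD8+ replicate 18, ribosome-rich, held Cxcr5 at 59.4 CPM on 32 counts, beside a summed 1793 CPM of B cell markers. Of the 6 B cell markers tested in CD3+CD8+ cells none had a positive fold change (median log2 -4.66). The part of B cells in this Cxcr5 difference was not tested. Cxcr6 and Ccl5 effects in CD3+CD8+ minus those in CD3-CD8- cells were -0.18 ± 0.62 and 0.11 ± 0.97. The calls in CD3-CD8- cells are therefore not shown to be particular to that fraction.

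Cxcl9 and Cxcl10 did not pass the test for treatment in any fraction. Cxcl9 had log2 fold changes of 1.76 ± 0.89, 0.92 ± 0.51 and 0.81 ± 0.61 in CD3+CD8+, CD3+CD8- and CD3-CD8- cells (adjusted p = 0.96, 1.0 and 0.36), and Cxcl10 of -0.44 ± 0.72, -0.23 ± 0.53 and -0.75 ± 0.55 (adjusted p = 1.0, 1.0 and 0.34). Cxcl9 in treated CD3-CD8- replicate 11, at 55.8 CPM, lay above the 8.61 to 17.9 CPM of the 5 others. Cxcr3 differed by 0.32 ± 0.46, -0.42 ± 0.36 and -0.23 ± 0.45. Cxcl16 was 21.6, 23.1 and 40.7 CPM in untreated and 5.47, 19.3 and 12.2 in treated CD3-CD8- libraries, without overlap, and just missed the threshold (-1.32 ± 0.45, adjusted p = 0.067).

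Of 37 textbook ligand-receptor pairs among the members (18 receptors, 32 ligands), 13 had a ligand below 1 CPM in the mean of every fraction, among them Ccl19 and Ccl21a with Ccr7, Ccl20 with Ccr6, Cxcl13 with Cxcr5 and Cx3cl1 with Cx3cr1. In 10 of the remaining 24 pairs the ligand and the receptor had their highest mean in the same fraction and in 14 in different ones. Some highest means lay close to the next, such as 79.2 against 76.9 CPM for Ccl3 and 77.2 against 71.7 for Cxcr3. This split is therefore a description only. In 4 pairs each partner was called higher in its top fraction than in at least 1 other. Of these 4, Cxcl2 with Cxcr2, Ccl6 with Ccr1 and Ccl9 with Ccr1 shared the CD3+CD8- fraction, whereas Ccl22 was highest in CD3-CD8- (7.18 CPM) and its receptor Ccr4 in CD3+CD8- cells (9.97 CPM). Ccl6 and Ccl9 were not called higher in CD3+CD8- than in CD3-CD8- cells (means of 288 against 133 and 72.6 against 62.4 CPM). The CD3+CD8- libraries also held abundant neutrophil markers, whose part in these pairs was not tested. Cxcl16 was highest in CD3-CD8- cells, at 20.4 CPM against 3.30 and 7.05, while no difference in Cxcr6 was called between fractions (460 against 402 and 327 CPM). These are RNA levels in sorted populations; signalling between partners was not measured.

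**Figure D5:**
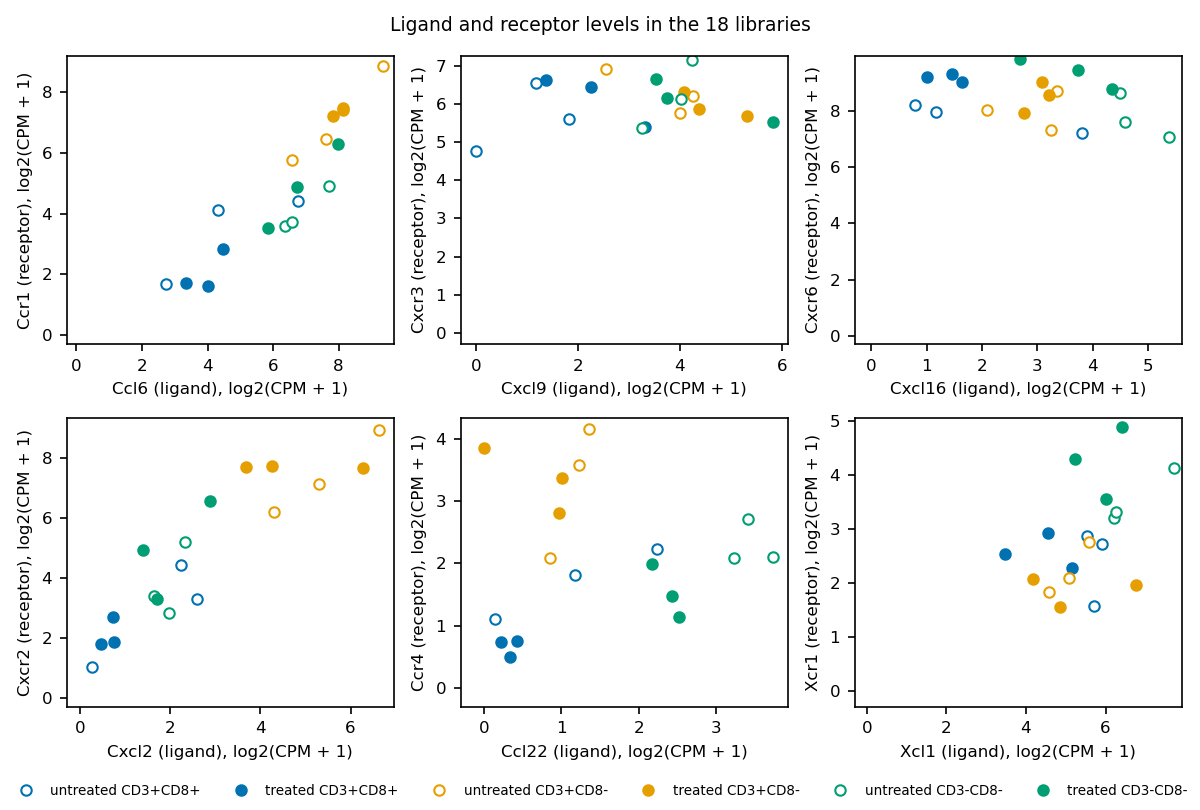
Ligand level (horizontal axis) against receptor level (vertical axis), both as log2(CPM + 1), for 6 pairs in the 18 libraries, coloured by fraction, open for untreated and filled for treated. The CD3+CD8- libraries are high on both axes for Cxcl2 and Cxcr2, while Ccl22 is high in CD3-CD8- and Ccr4 in CD3+CD8- libraries.

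Other genes of chemokine signalling, 85 in 7 lists, were set beside the members. In CD3+CD8+ (74 tested) and CD3+CD8- cells (77 tested) none was called. In CD3-CD8- cells 37 of 78 were called, 11 higher and 26 lower, where 25.6% of all genes were called, 10.2% higher and 15.3% lower. The median log2 fold change of the 78 was -0.28, against -0.06 over all genes. Among receptors and factors upstream of chemokine genes 3 of 19 rose and 8 fell: the interferon-gamma target and regulator Irf1 (0.72 ± 0.19), the RNA sensor Ifih1 (1.01 ± 0.22) and Tnfrsf1b rose, while the NF-kappaB subunits Nfkb1, Nfkb2 (-1.88 ± 0.20), Rela and Relb, their inhibitor Nfkbia, Irf7 (-1.22 ± 0.13), Ifngr1 and Ifngr2 fell.

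In the same CD3-CD8- comparison, of 11 G protein signalling genes Gng2 rose and Gnai2, Gnb2 (-2.03 ± 0.19), Plcb3, Pik3r5 and Prex1 fell. Of 12 desensitisation genes Rgs1, which dampens chemokine receptor signalling, rose (1.96 ± 0.57) and Grk6, Arrb1 and Rgs14 fell. Of 22 migration genes the integrin Itga4 (0.99 ± 0.21), Rap1a and Fyb rose, and Arpc1b, Coro1a, Fermt3 (-1.28 ± 0.16), Tln1, Itgb7 and Rapgef1 fell. The atypical receptor Ccrl2 rose (0.85 ± 0.22), Cmklr1 and the oxysterol receptor Gpr183 fell (-0.96 ± 0.13 for the latter), and so did the platelet chemokine Pf4 (-1.92 ± 0.56). Megakaryocyte and platelet markers summed to 46.6 to 72.1 CPM in untreated and 15.2 to 23.2 in treated CD3-CD8- libraries, with both tested members of the 5 called lower, and their part in the fall of Pf4 was not tested. Of 8 genes that sulfate or cleave chemokines or their receptors, Dpp4 and the Cxcl16 sheddase Adam10 rose and Tpst1 fell. The total over all genes, 3522 of 13781, was 500 of 13781 with the GC correction and 76 of 13181 with all 18 libraries in 1 fit. The genes of these lists were not followed singly under those alternatives.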

How the data were processed

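The authors deposited a table of raw counts per gene and a table of FPKM values (fragments scaled by transcript length and library size). Tools listed in the submitters' processing notes, with no role for each, are Cufflinks 2.2.1, HTSeq 0.13.5, DESeq2 3.20 and Trim Galore 0.6.7. No aligner, build or strand setting is given in the sources used here. Positions equal those of GENCODE vM21 (GRCm38) for the chromosome of 57 of 57 members and the start of 50. Of 40 library columns, 18 were used; 22 belong to no sample analysed here. A treated CD3+CD8- title repeats a digit in its code and was read as replicate 11.

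Counts were filtered with filterByExpr, scaled by TMM and tested with edgeR 4.0.16 (quasi-likelihood) in R 4.3.3, each fraction's treatment on its own 6 libraries and fractions on all 18; p-values were adjusted by Benjamini-Hochberg over all genes tested and called below 0.05. SE is the fold change divided by the square root of F. Alternatives used DESeq2 1.42.0 and limma 3.58.1. Within-lane values are log2 ratios of mean CPM, with a small constant added to both means. The fits were tested on simulated counts. FPKM values served to compare genes and, as log2(FPKM + 1) with a mean of at least 1, for 1 alternative.

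The members and gene lists were chosen with earlier results of these data known. Full statistics are given for every member called for treatment, the 5 of smallest p where none was, the 5 called members of largest fold each way between fractions whose mean log2 CPM reached 3, and a list of well-known members; others are counted. Counts cover all members; 1 member is not reported here.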

Additional observations from a re-analysis of the deposited data

How the results depend on the processing

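For treatment in CD3+CD8+ cells the 0 members called became 2 without a filter on low counts, 3 with DESeq2 and 4 with limma voom, and 0 to 2 over fits leaving out a library. In CD3+CD8- cells it was 0 under every alternative run. In CD3-CD8- cells the 8 became 21 without a filter, 15 with limma voom, 1 with all 18 libraries in the fit, 2 with the GC offset, 1 on FPKM values and 1 to 9 leaving out a library; over all genes the 3522 calls became 5479 with DESeq2, 6399 with limma voom, 2045 with library totals, 500 with the GC offset, 251 on FPKM values, 76 with all 18 libraries and 239 without untreated replicate 5. Between CD3+CD8+ and CD3+CD8- cells the 11 became 0 with untreated libraries alone and 10 to 15 leaving out a library. Between CD3+CD8+ and CD3-CD8- cells the 14 became 1 with untreated libraries alone and 10 to 17. Between CD3+CD8- and CD3-CD8- cells the 11 became 18 without a filter, 2 with untreated and 5 with treated libraries alone, and 9 to 13. The test of differing treatment effects stayed at 0. Signs reversed for Xcl1 and Ccr9 in CD3+CD8+ cells: Xcl1 was 0.78 on FPKM values, and Ccr9 was 1.12 on FPKM values and 0.54 with library totals. Of 840 values of single genes, 749 kept their direction and side of the threshold, 79 lost the call, 9 gained it and 3 reversed; the cause was not tested.

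Treated and untreated libraries share no replicate code, so pairing could bear only on the fractions. Same-code libraries had deviations correlated at a median of 0.35 (-0.04 to 0.56, 14 of 16 pairs over 0.1) against -0.13 for 38 other pairs, and 27 of 32 comparisons were best with the own code, a hint from the data and not the design. With the replicate block the members called were 16, 17 and 17, and with the block and GC offset 17, 19 and 16, for the 3 fraction comparisons in the order above. Depth limits the low members most: 3 counts equal 5.57 CPM in untreated CD3+CD8+ replicate 18.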
